A study of Mus musculus with 10 samples.

Results

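Wide sites were the open chromatin sites of Th17 cells that spanned more than the common width of the deposited site table. They were chosen by width alone, with no use of their signal, and numbered 791 of 39657 (1.99%). The other 38866 sites all had exactly the same width, 36 bp less than the narrowest wide site, and are called standard sites here. The cells were naive CD4+ T cells from spleen and lymph nodes of mice with floxed pyruvate dehydrogenase (PDH) alleles. KO cells carried a CD4 Cre as well, which is active from T cell development in the thymus onwards, and the controls (WT) had the floxed alleles without Cre. Cultures ran for 3 days with plate-bound anti-CD3 at 5 μg/mL, anti-CD28 at 1 μg/mL, IL-6 at 30 ng/mL, anti-IFNγ at 5 μg/mL and TGFβ at 2 ng/mL. They held no acetate (3 KO and 3 WT libraries) or 10 mM sodium acetate (2 KO and 2 WT libraries). The labels do not say whether libraries came from separate animals, so p-values measure only the spread between these libraries, which may be technical.

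ATAC-seq cuts DNA with a transposase where chromatin is open, so a site with more reads was cut more often in that library. Open sites mark promoters, where transcription starts, and enhancers, which lie within or between genes. PDH turns pyruvate into mitochondrial acetyl-CoA, and cells can also make acetyl-CoA, the donor of histone acetyl groups, from acetate.

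The widths were not spread evenly. The narrowest wide sites, near Ly6c2 and Emb, measured 237 bp each, the next, near Stim1, measured 244 bp, and every site on the other side of the threshold had the standard width. The median was 373 bp (quartiles 344 and 389 bp), and 347 wide sites (43.9%) measured 376 to 400 bp. In all, 769 (97.2%) ended at or below 400 bp, 2 bp short of 2 standard sites end to end. The other 22 ran from 412 to 689 bp. Among all 39657 sites no neighbours overlapped by more than 1 base, and 13 pairs of standard sites shared exactly 1 base. The table and the labels do not say how wide sites were made.

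**Figure D1:**
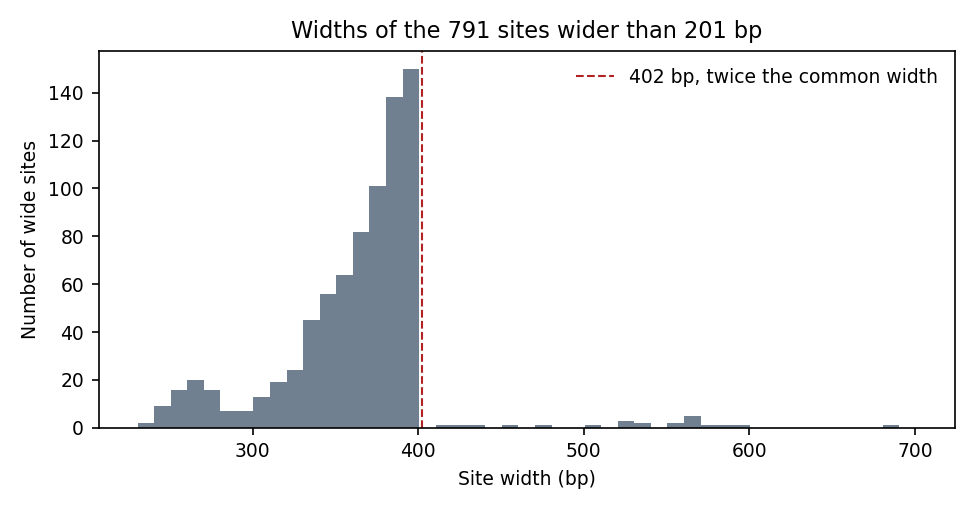
Number of wide sites (vertical axis) by site width in bp (horizontal axis, bins of 10 bp), for all 791 wide sites. The bars climb up to 400 bp and stop before the dashed line at the length of 2 standard sites, with 22 sites beyond it.

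Of the 791 wide sites, 154 (19.5%) overlapped a RefSeq promoter window, the stretch from 250 bases before to 50 bases after a gene's start. Among standard sites the share was 14.7%, and among the 22 sites above 400 bp it was 40.9% (9 sites). A longer interval meets a window more easily, so the shares are descriptions and were not tested. A gene's start lay inside 133 wide sites (16.8%) and inside 11.0% of the standard sites. At 9 wide sites (1.14%) the windows of 2 genes were met, and 1.17% of the standard sites met windows of 2 or more genes. Among sites on a promoter window these shares were 5.84% of wide and 7.95% of standard sites. At 8 of the 9 wide sites the genes ran away from each other, as divergent pairs. Their starts lay 19 bp apart at Ndufs3 and Kbtbd4, 36 at Fbxl12 and Ubl5, 65 at Spata17 and Gpatch2, 76 at Ska3 and Mrpl57, and 84 at Crnkl1 and Cfap61. They lay 217 bp apart at Cwc27 and Srek1ip1, 327 at Zfp408 and Arhgap1, and 368 at Zfp672 and Sh3bp5l. In these last pairs only the start of the gene named first lay inside the site.

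Promoter sequence covered by wide sites is shown for 2 of the widest sites and for 2 sites named below for their fall in KO cells, from RefSeq on build GRCm38.p6. Each runs 5′ to 3′ on the gene's own strand, ends 1 base before the start and is limited to bases inside the site. Capitals mark short motifs on either strand: CCGGAAG (ETS factors), CCAAT (NF-Y), GGGCGG (SP and KLF factors) and TGACGTCA (CRE). The Slc35f6 stretch is chr5:30647689-30647938, the Rtf1 stretch chr2:119674818-119675067, the Cfap45 stretch chr1:172520966-172521129 and the Mast1 stretch chr8:84937354-84937482 (minus strand).
Slc35f6: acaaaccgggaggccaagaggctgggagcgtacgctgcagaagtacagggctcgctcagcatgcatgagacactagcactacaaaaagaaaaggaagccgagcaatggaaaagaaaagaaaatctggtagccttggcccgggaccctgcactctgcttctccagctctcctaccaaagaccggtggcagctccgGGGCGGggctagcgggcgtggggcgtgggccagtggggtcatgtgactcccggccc
Rtf1: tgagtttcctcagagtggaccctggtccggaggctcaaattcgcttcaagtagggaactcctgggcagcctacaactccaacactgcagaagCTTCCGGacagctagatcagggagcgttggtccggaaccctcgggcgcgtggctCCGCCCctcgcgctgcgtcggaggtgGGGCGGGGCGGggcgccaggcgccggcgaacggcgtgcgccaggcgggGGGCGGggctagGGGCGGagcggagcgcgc
Cfap45: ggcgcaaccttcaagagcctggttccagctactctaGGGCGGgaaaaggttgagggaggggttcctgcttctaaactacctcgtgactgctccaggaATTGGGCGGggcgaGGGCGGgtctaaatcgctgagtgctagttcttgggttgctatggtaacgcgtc
Mast1: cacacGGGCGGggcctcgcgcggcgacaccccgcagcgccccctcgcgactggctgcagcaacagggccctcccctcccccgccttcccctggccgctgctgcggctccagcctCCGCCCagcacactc
Rtf1, a subunit of the Paf1 elongation complex, had 28 CpG in its 250 bases (70.4% GC) and repeated GGGCGG letters. Slc35f6, under the widest of all sites, had 13 CpG in 250 bases (60.4% GC).

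The stretches between the starts are shown for 4 of the closest divergent pairs, as examples of a short promoter shared by 2 genes under a single wide site. They are given on the plus strand with capitals as above, at chr1:187215447-187215510, chr14:57826164-57826238, chr2:145934701-145934783 and chr9:20644768-20644802.
Spata17 and Gpatch2: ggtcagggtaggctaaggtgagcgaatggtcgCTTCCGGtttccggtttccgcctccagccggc
Ska3 and Mrpl57: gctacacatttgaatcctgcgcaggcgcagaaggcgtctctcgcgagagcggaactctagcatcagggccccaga
Crnkl1 and Cfap61: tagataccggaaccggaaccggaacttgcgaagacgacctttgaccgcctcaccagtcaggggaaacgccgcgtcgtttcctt
Fbxl12 and Ubl5: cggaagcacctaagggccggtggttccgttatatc
The first holds the ETS letters once. The other 3 hold none of the searched letters, which says only that these letters are not in these short stretches. The full promoter windows of these genes reach further, and those of Ska3, Mrpl57, Fbxl12 and Ubl5 hold the ETS letters.

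Promoter windows met by wide sites numbered 185, from 163 genes, of 21262 windows of protein-coding genes. Their median GC content was 58.3% and their median CpG count per 300 bases was 19. Windows met by standard sites had 62.3% and 23, windows met by no site had 53.0% and 7, and all windows had 56.3% and 13. CCGGAAG was present in 29.2% of the windows under wide sites, 24.1% of those under standard sites and 11.6% of all windows. GGGCGG was present in 53.0%, below the 70.8% under standard sites and above the 46.2% of all windows. CCAAT was present in 40.5% under wide sites, 36.9% under standard sites and 38.2% of all. TGACGTCA was present in 5.41%, 4.29% and 2.23%, and the TATA box letters TATAAA in 7.57%, 5.42% and 12.6%, in the same order. Both strands were searched, and no motif of the list contains another, though matches may overlap, as CCAAT and GGGCGG do in the Cfap45 stretch. These shares describe letters and show no binding.

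By position relative to genes, wide sites lay more often at gene ends and less often inside genes than standard sites. Within 1 kb of a gene end lay 283 (35.8%), against 24.6% of the standard sites, and inside gene bodies 239 (30.2%), against 42.6%. Beyond 50 kb of any protein-coding gene lay 34 (4.30%), against 8.18%. The median distance to the nearest start of the promoter table was 8774.5 bp for wide and 17170 bp for standard sites. The wide sites of up to 300 bp did not share this: 14 of these 77 (18.2%) lay at gene ends, and their median distance was 22389.5 bp. Wide sites reached 717 genes, of which 40 had 2 and none had 3. Each autosome and X held some, from 1.44% of the sites on chromosome 1 to 2.88% on chromosome 19. Neither of the 2 mitochondrial sites was wide.

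The 5 widest sites lay near Slc35f6 (689 bp, chr5:30647676-30648364), Pgls (593 bp, chr8:71595789-71596381), Rtf1 (581 bp, chr2:119674513-119675093), Slc38a1 (577 bp, chr15:96543176-96543752) and Eif3i (566 bp, chr4:129600533-129601098), in GRCm38 coordinates. Pgls makes an enzyme of the pentose phosphate pathway, Slc38a1 a glutamine transporter and Eif3i a subunit of a translation initiation factor. Slc38a1's site lay outside genes within 50 kb, and the other 4 lay at gene ends. The site named for Eif3i held the start of Tmem234. Signal in a site was the authors' normalised value. At Slc35f6 it was 212, 199 and 253 in untreated KO and 467, 284 and 407 in untreated WT. At Rtf1 it was 257, 256 and 297 in untreated KO and 493, 389 and 709 in untreated WT. At both sites the untreated groups did not overlap, with KO lower.

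Every value of a library was a whole multiple of 1 step, and if that step is 1 read, which no source states, the libraries held 3500172 to 13356560 reads in sites and a wide site held a median of 93 to 348 reads. Signal per 100 bp was lower in wide than in standard sites in 10 of 10 libraries, with a ratio of medians from 0.840 to 0.999. In untreated KO libraries the median per 100 bp was 42.0 ± 5.74 (SD, n = 3) in wide and 49.3 ± 6.76 in standard sites. In untreated WT libraries it was 75.6 ± 10.3 and 82.8 ± 9.15 (SD, n = 3). Given acetate, it was 73.3 ± 7.66 and 82.9 ± 4.06 in WT, and 66.8 ± 6.86 and 74.4 ± 7.57 in KO (SD, n = 2 each). Wide sites of up to 300 bp (ratio 0.703 to 0.783) and above 400 bp (0.638 to 0.812) were lower in every library. Those above 300 and up to 400 bp (0.860 to 1.02) were lower in 9, the exception being WT untreated 4. Wide sites took 3.55% of the bases in sites and 2.14 to 2.41% of the signal. Counted whole, they were not weak: when all sites were split into 5 quintiles by mean log2 signal, 159 stood in the highest and 6 in the lowest.

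**Figure D2:**
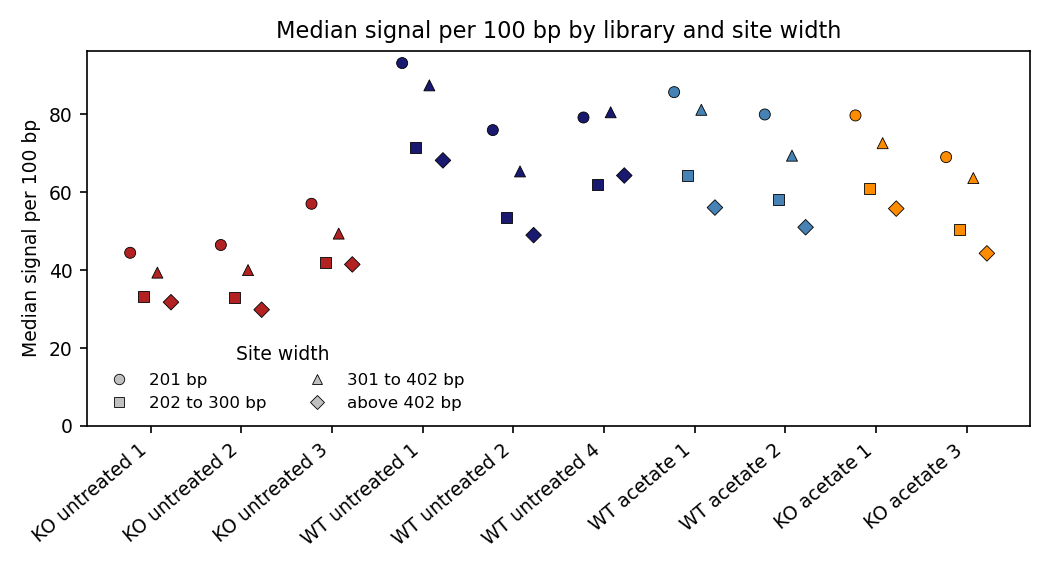
Median signal per 100 bp (vertical axis) in each of the 10 libraries (horizontal axis), with 1 marker shape per width class. Circles for standard sites stand above squares and diamonds in every library, and the 3 untreated KO libraries are lowest in every class.

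By signal per 100 bp over all libraries, the highest wide sites lay near Apoc2 (215 per 100 bp), Atp6v1a (184), Plrg1 (183), Src (182) and Fastkd1 (181). Atp6v1a, a subunit of the vacuolar proton pump, Plrg1, a splicing factor, and Fastkd1, which acts on mitochondrial RNA, had their site at a gene end. Src, a tyrosine kinase, had it in the gene body (chr2:157457297-157457692). At Apoc2, a cofactor of lipoprotein lipase, signal was 542, 736 and 715 in untreated KO, 1016, 915 and 828 in untreated WT. Acetate-treated cells had 902 and 826 (WT) and 811 and 784 (KO). Untreated KO lay below every other library.

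Untreated KO cells were lower than untreated WT cells at nearly all wide sites in the deposited values, but so they were at nearly all sites of the table. The column names of all untreated KO libraries and of WT untreated 1 and 2 start with ATAC1, and that of WT untreated 4 with ATAC2. Genotype and prefix are thus partly mixed here. A site was called at an adjusted p under 0.05 (limma on log2(signal + 1), adjusted over all sites). In KO, 775 wide sites (98.0%) fell, against 89.6% of all sites, and the median log2 difference was -0.81 in wide and -0.84 in all sites. Another scaling removes this common shift: cyclic loess, which centres the libraries on each other, brought the median of all sites to -0.00051 and that of wide sites to 0.01. It left 6 wide sites (0.759%) lower in KO, against 2.41% of all sites, and all 6 were among the 775. The median of wide sites was thus no lower than that of all sites under either scaling. The interquartile range was -0.96 to -0.70 over wide sites and -1.03 to -0.66 over standard sites. The groups did not overlap, with KO lower, at 723 wide sites (91.4%), against 80.9% of all sites.

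Few wide sites were higher in KO. In all, 11 (1.39%) rose in untreated KO, against 9.07% of all sites, and with cyclic loess 12 (1.52%), against 9.35%, with the same 11 among them. The groups did not overlap, with KO higher, at 10 wide sites (1.26%), against 8.61% of all sites. The difference between width classes was not tested. Signal moved with it: among standard sites the share that rose was 26.4% in the lowest quintile by signal and 0.412% in the highest. Of wide sites, 6 of 6 rose in the lowest quintile, 2 of 60 in quintile 2, 1 of 230 in quintile 3, 2 of 336 in quintile 4 and 0 of 159 in the highest. The standard sites' shares in quintiles 2, 3 and 4 were 10.2%, 6.19% and 2.33%. Position moved with it too: none of the 283 wide sites at gene ends rose, and 1.56% of standard sites there did, while in gene bodies 10 of 239 wide (4.18%) and 10.9% of standard sites did. The part of signal and of position in the difference was not tested.

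**Figure D3:**
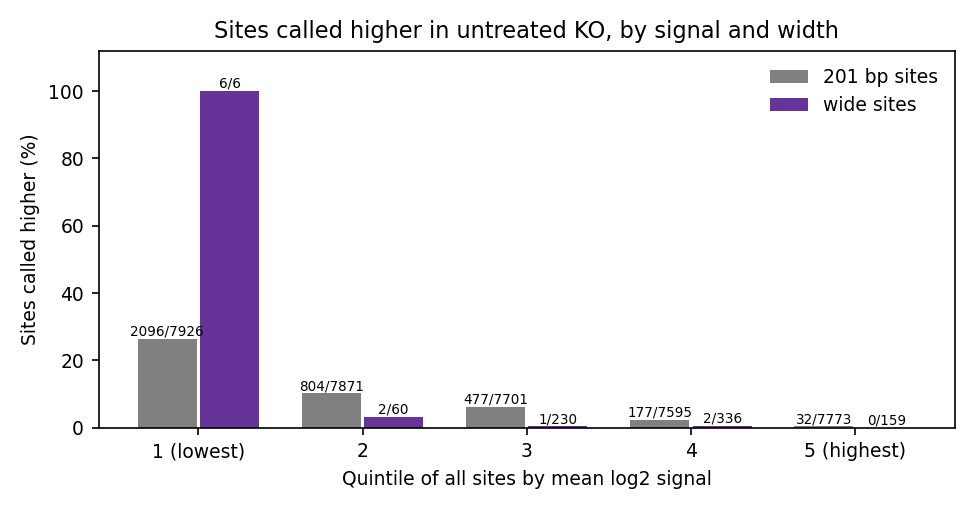
Share of sites called higher in untreated KO than in untreated WT (vertical axis, percent), by quintile of all sites by mean log2 signal (horizontal axis), for standard (grey) and wide (purple) sites, with the counts above the bars. The lowest quintile holds only 6 wide sites, all called, and in quintiles 2 to 5 the wide share is below the standard share.

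Of the 11 wide sites that rose, 10 lay in gene bodies, in no promoter window, and 1 lay beyond 50 kb of a gene. The gene table used here has no exons, so exonic and intronic positions were not told apart. Slc47a1, which makes a proton-coupled exporter of organic cations, had the largest difference, at chr11:61377294-61377583. Its signal was 83.4, 99.9 and 134 in untreated KO and 21.2, 28.1 and 27.6 in untreated WT. With acetate it was 30.8 and 36.5 in WT and 39.2 and 34.7 in KO. Only untreated KO was high, and its 3 libraries did not overlap any other. The log2 difference was 1.98 ± 0.30 (SE; 3.95-fold, adjusted p = 2.6e-08), and 2.88 with cyclic loess.

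Scel, which makes a protein of the cornified cell envelope, had the same pattern at chr14:103607000-103607366. Its signal was 210.0, 305 and 344 in untreated KO, 98.6, 144 and 116 in untreated WT. Acetate-treated cells had 92.3 and 181 (WT) and 108 and 128 (KO). Untreated KO again lay above all other libraries, with a log2 difference from untreated WT of 1.24 ± 0.23 (SE, adjusted p = 2.3e-06). Rps6ka5, a kinase that phosphorylates histone H3, had 254, 317 and 359 in untreated KO and 221, 213 and 203 in untreated WT at chr12:100704926-100705320. There was no overlap, and the difference was smaller, 0.53 ± 0.21 (SE, adjusted p = 0.015), or 0.42 with an adjusted p of 0.068 without KO untreated 3 and 0.51 with 0.05 without KO untreated 2. Shb, an adaptor of T cell receptor signalling, had 411, 409 and 486 in untreated KO and 308, 383 and 211 in untreated WT at chr4:45455097-45455489. The difference was 0.57 ± 0.21 (SE, adjusted p = 0.008), and 0.34 with an adjusted p of 0.12 without WT untreated 4, whose value was the lowest, or 0.49 with 0.05 without KO untreated 3.

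Slc47a1 and the other 7 fell outside the rule for sites named in this comparison and are given here after their values were seen. Of these, Slc47a1, Inpp5a and the site with no gene within 50 kb are also named by the rule for the interaction. Near Apc, a scaffold of Wnt signalling, the log2 difference was 1.64. It was 1.28 at Lars2, a mitochondrial leucyl-tRNA synthetase, and 1.20 at Crtac1, an extracellular matrix protein. It was 1.06 at Phc3, a Polycomb protein, 1.06 at Inpp5a, an inositol trisphosphate phosphatase, and 0.91 at Zfp704, a zinc finger gene. At the site with no gene within 50 kb, chr11:24344788-24345093, it was 1.17. The highest untreated KO value at these 7 was 139.5, at Zfp704, where untreated KO had 119.6, 109 and 139.5 and untreated WT had 62.4, 66.3 and 65.2. Among those 7, the widest was the Zfp704 site at 389 bp. Inpp5a also had a wide site outside these 7, of 344 bp and holding the gene's start. That site went the other way, with a log2 difference of -1.03.

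Among the falls named for this comparison, the largest was at Slc44a2, a choline transporter-like gene, at chr9:21324302-21324667. Its signal was 43.9, 48.6 and 68.6 in untreated KO and 162, 135 and 193 in untreated WT. These groups were far apart, with a log2 difference of -1.60 ± 0.23 (SE, adjusted p = 3.6e-09) and -0.74 with cyclic loess (adjusted p = 0.0055). Cfap45, a ciliary gene whose promoter is shown above, had 143, 150.4 and 188 in untreated KO and 433, 332 and 503 in untreated WT. No KO library reached the WT range, and the difference was -1.38 ± 0.21 (SE, adjusted p = 2.8e-08) and -0.57 with cyclic loess (adjusted p = 0.0057).

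Rd3, a retinal gene that regulates guanylate cyclase, fell by 1.41 on the log2 scale, and Tgm2, a transglutaminase, fell by 1.33, and both were still called with cyclic loess. Mast1, a microtubule-associated kinase whose promoter is shown above, fell by 1.34 on the log2 scale, but with cyclic loess its difference was -0.49 (adjusted p = 0.095). The 6 wide sites still lower with cyclic loess were those at Slc44a2, Cfap45, Rd3, Tgm2, Gnb5 and Intu. Gnb5 makes a G protein subunit and Intu, named after its values were seen, acts in cilium assembly. Gnb5, which lies below the median signal that the rule asks for and is named for its interaction, had a larger fall than Slc44a2. At Gnb5 signal was 37.3, 41.1 and 39.0 in untreated KO and 149, 118 and 121 in untreated WT. Without overlap, the log2 difference was -1.69 ± 0.24 (SE, adjusted p = 5.2e-09).

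Just 5 wide sites were in neither direction past the threshold, and they are named because they are few. They lay near Slc20a1, a phosphate transporter (-0.49), Syne1, a nuclear envelope protein (-0.41), Ezh2, the Polycomb methyltransferase (-0.38), Card6 (-0.29) and Sbno1 (-0.27). Card6 and Sbno1 each had a second wide site, at -1.05 and -0.59, both called lower. Both Card6 sites lay in the gene body. At the uncalled one, chr15:5106306-5106606, signal was 123, 119.6 and 179.7 in untreated KO and 187, 155 and 168 in untreated WT, so the groups overlapped. At the other, chr15:5108342-5108649, it was 108, 83.1 and 106 and 232, 135 and 273, with no overlap. With cyclic loess the uncalled Card6 site was called higher, at 0.57 (adjusted p = 0.012).

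With acetate in both genotypes, no wide site was called in either direction by limma. An unadjusted limma p under 0.05 was found at 2 of 791 wide sites, against 914 of all 39657 sites. Of all sites 0.0227% were called higher and 0% lower. The smallest adjusted p at a wide site was 0.993, and the median log2 difference was -0.15 in wide and in all sites. KO lay below WT in both pairs of libraries without overlap at 183 wide sites (23.1%), against 30.3% of all sites, and above at 13 (1.64%), against 4.63%. At the Cfap45 site the 4 acetate libraries were 424 and 345 in KO and 397 and 379 in WT, which overlapped. At Slc47a1, highest in untreated KO, they also overlapped.

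Within KO cells, most wide sites had more signal with acetate. It raised 479 (60.6%), against 54.6% of all sites, and lowered 7 (0.885%), against 5.94%. The groups did not overlap at 594 wide sites with acetate higher (75.1%), against 69.8% of all sites, and at 13 with acetate lower (1.64%), against 8.15%. The median log2 difference was 0.61 in wide and in all sites. With cyclic loess 55 wide sites (6.95%) rose, against 11.5% of all, and 70 (8.85%) fell, against 16.7%. Without KO acetate 1 the share that rose was 23.9%, and without KO untreated 1 it was 39.2%. All 3 untreated KO columns start with ATAC1 and both acetate KO columns with ATAC2, so acetate and whatever that prefix stands for cannot be told apart. All 479 that rose were among the 775 lower in untreated KO, and all 7 that fell were among the 11 higher there. Both comparisons use the same untreated KO libraries, so this is not independent.

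The largest rise with acetate in KO was at Slc44a2, where signal went from 43.9, 48.6 and 68.6 to 288 and 198, with no overlap. The log2 difference was 2.16 ± 0.25 (SE, adjusted p = 1.3e-12) and 1.47 with cyclic loess. In WT cells the same site had 162, 135 and 193 untreated and 280.0 and 259 with acetate, a difference of 0.73 ± 0.25 (SE) that missed the threshold (adjusted p = 0.062). Upb1, an enzyme of pyrimidine breakdown, rose from 104, 98.1 and 118 to 376 and 308 in KO (1.67 on the log2 scale). Ubash3b, a phosphatase that dampens T cell receptor signalling, rose from 88.8, 97.1 and 100.5 to 361 and 252 (1.65). Ppara, a nuclear receptor of fatty acid oxidation, rose from 83.4, 99.0 and 96.9 to 319.7 and 229 (1.53), and Mast1 from 91.0, 69.1 and 106 to 283 and 238 (1.56). At these 4 the untreated and acetate KO libraries did not overlap.

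Among the 7 that fell, Scel went from 210.0, 305 and 344 to 108 and 128 in KO (-1.24 ± 0.25 on the log2 scale, SE, adjusted p = 1.9e-05). Rps6ka5 went from 254, 317 and 359 to 176 and 187 (-0.76 ± 0.24, SE, adjusted p = 0.0046), and its adjusted p was 0.065 without KO acetate 1. The other 5, given because they are few, lay at Slc47a1 (-1.47), Apc (-1.48), Phc3 (-1.52), Zfp704 (-1.17) and Inpp5a (-0.77). The 4 sites that rose in untreated KO and were not lowered lay at Lars2 (-0.49, adjusted p = 0.19), Shb (-0.47, 0.073), Crtac1 (0.39, 0.27) and the site with no gene (0.35, 0.32).

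**Figure D4:**
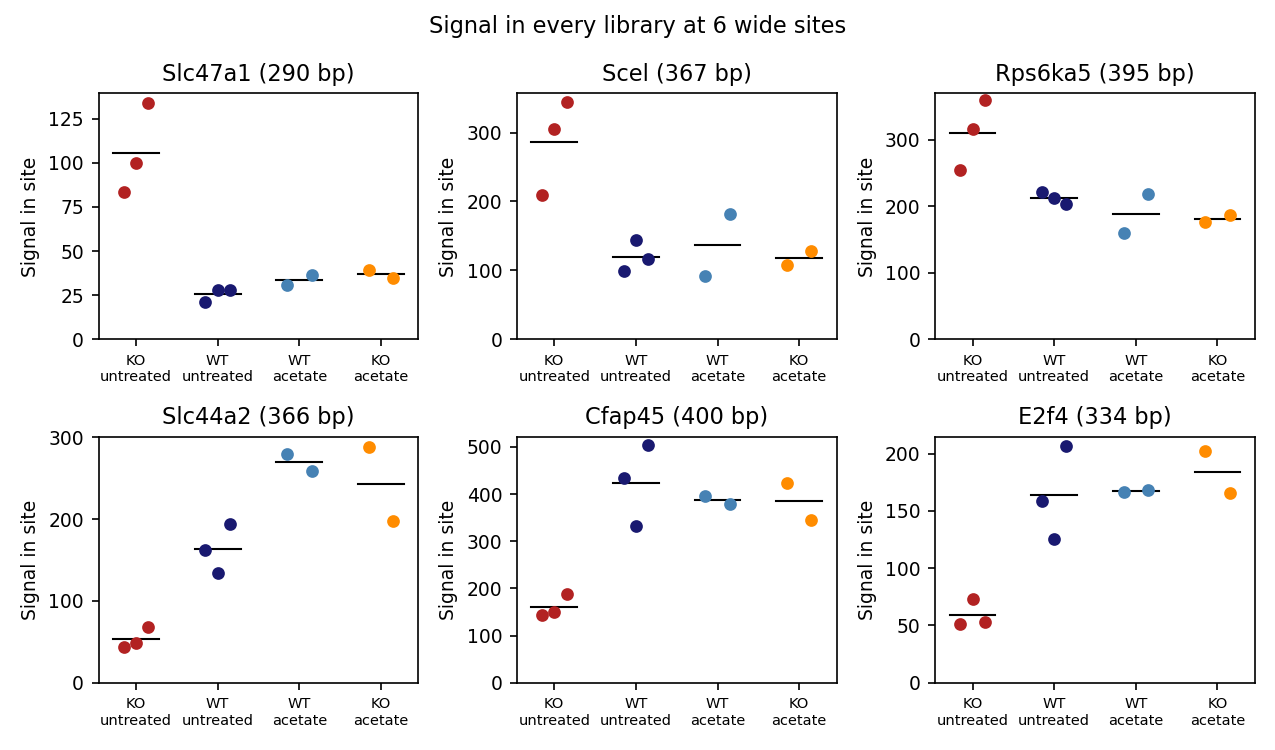
Deposited signal (vertical axis, from 0) at 6 wide sites in each library, by group (horizontal axis), with a bar at the group mean. Slc47a1, Scel and Rps6ka5 are highest in the 3 untreated KO libraries, and Slc44a2, Cfap45 and E2f4 are lowest there.

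In WT cells acetate moved few wide sites. It raised 4 (0.506%), against 2.91% of all sites, and lowered 10 (1.26%), against 3.02%. With cyclic loess 12 (1.52%) rose, against 4.43% of all sites, and 15 (1.90%) fell, against 4.07%. The groups did not overlap at 58 wide sites with acetate higher (7.33%), against 16.1% of all, and at 103 with acetate lower (13.0%), against 15.3%. The median log2 difference was -0.06 in wide and -0.03 in all sites. The only named rise was at Boc, a hedgehog co-receptor (chr16:44496988-44497354), from 136, 147 and 192 to 255 and 274. Its groups did not overlap, with a log2 difference of 0.75 ± 0.25 (SE, adjusted p = 0.045). The call was lost without any of 8 of the 10 libraries, and without WT acetate 2 the adjusted p was 0.30. The largest named fall was at Vrk1, a nuclear kinase (chr12:106031965-106032336), from 312, 249 and 167 to 102 and 104. Without overlap, the log2 difference was -1.19 ± 0.25 (SE, adjusted p = 0.00073). Without WT acetate 1 it was -1.17 and just missed the threshold (adjusted p = 0.05 when rounded). Both acetate WT columns and WT untreated 4 start with ATAC2, and WT untreated 1 and 2 with ATAC1. Acetate and prefix are thus partly mixed in WT. Among libraries of the prefix ATAC2 alone the difference was 0.46 at Boc and -0.70 at Vrk1. WT untreated 4 was then the single untreated library, so that group had no spread of its own.

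Smaller falls with acetate in WT were at Ccdc87 (-0.96), Hspbp1, a cofactor of Hsp70 (-0.92), Usp6nl, an activator of Rab GTPase hydrolysis (-0.84), and Usp3, a histone deubiquitinase (-0.78). Each of these 4 missed the threshold without WT acetate 1, where the adjusted p ran from 0.19 at Usp6nl to 0.45 at Usp3. Each also missed it without WT untreated 1, from 0.069 at Hspbp1 to 0.21 at Usp3. Usp3 had a second wide site that went from 392, 272 and 319.5 to 345 and 271 and was not called (-0.09). The 3 rises outside the rule, given because they are few, were the site with no gene (1.73), Crtac1 (1.51) and Iqsec1 (1.18). At Crtac1 signal went from 23.7, 35.2 and 21.0 to 92.3 and 62.5 in WT and from 45.0, 71.9 and 69.8 to 88.7 and 72.4 in KO. Untreated WT alone was low there.

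**Figure D5:**
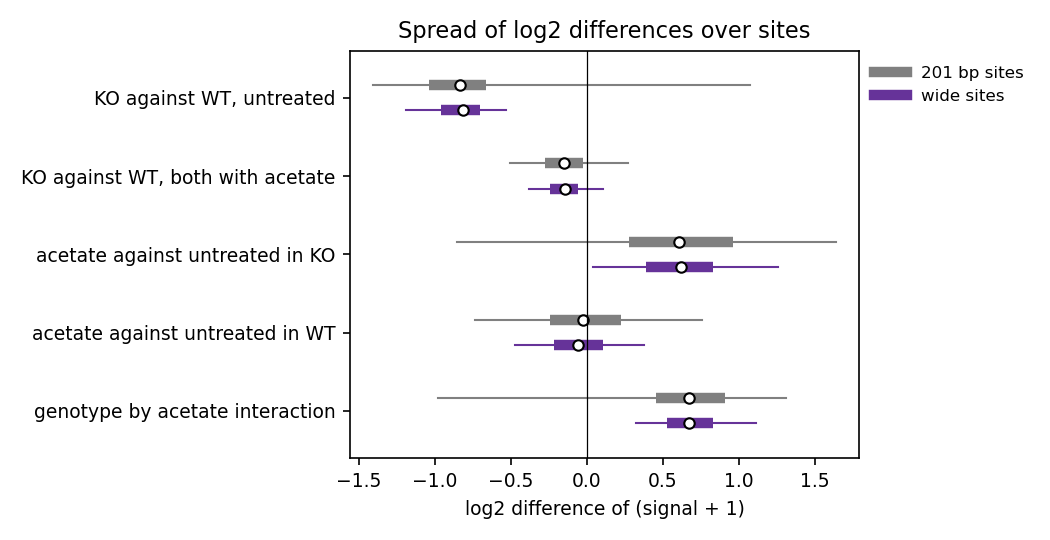
Spread over sites of the log2 difference of (signal + 1) (horizontal axis) for each comparison, in standard (grey) and wide (purple) sites: thin lines span percentiles 5 to 95, thick bars the interquartile range, circles the median. Medians of both classes lie close together, and the wide sites' lines are the shorter ones in every comparison.

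The genotype by acetate interaction, which asks whether acetate acted differently in KO and WT, was called at 147 wide sites (18.6%) towards a larger rise in KO, against 19.5% of all sites. It was called at 4 (0.506%) in the other direction, against 3.61%. With cyclic loess these counts were 1 (0.126%) and 12 (1.52%), against 0.139% and 7.36% of all sites, and all 4 of the second kind were among the 12. The share of 18.6% was 0.126% without KO acetate 1, 1.14% and 2.28% without KO untreated 1 and 2, 32.4% without KO untreated 3, 2.15% and 52.8% without WT untreated 1 and 2, 10.2% and 1.77% without WT acetate 1 and 2, and 7.46% without KO acetate 3. E2f4, a repressor of cell cycle genes, had 51.0, 72.9 and 53.2 in untreated KO and 202.1 and 166 in KO with acetate, at chr8:105298926-105299259. In WT it had 159, 126 and 207 untreated and 166 and 168 with acetate. Only untreated KO was low, and the interaction was 1.57 ± 0.36 on the log2 scale (SE, adjusted p = 0.0043), or 1.43 with an adjusted p of 0.06 without KO acetate 1.

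Of the genes of the fixed lists, 18 of 309 had a wide site, with 19 sites in all. Of all protein-coding genes 717 of 21896 had one. A gene with more sites has more chances to hold a wide one, so these gene counts do not compare the lists with all genes. None of the 194 sites at Th17 programme genes was wide, against 1.99% of all sites. All sites at Il17a (7), Il17f (4), Il23r (7) and Ccr6 (3) had the standard width. The same held for Pdha1 (1 site), which encodes the E1 alpha subunit of PDH, for Acly (2), which makes cytosolic acetyl-CoA from citrate, and for Acss2 (1), which makes it from acetate. The labels do not say which PDH gene was floxed, and a site's openness does not check the deletion. Sites at regulatory T cell genes (74), inhibitory receptors (66) and ribosome genes (29) also held no wide one, and at 1.99% such small lists may hold none. Above 1.99% were cell cycle genes (3 of 66, 4.55%) and genes of citrate export, acetyl-CoA and lipid synthesis (2 of 50, 4%). So were genes of PDH and the TCA cycle (2 of 63, 3.17%), interferon genes (1 of 34, 2.94%) and B cell markers (2 of 15, 13.3%). The remaining lists with a wide site ran from 0.412% to 1.67%. No list was tested against the 1.99% of all sites. In untreated KO, 18 of the 19 were called lower and 1, at Ezh2, was not called, but 10 of the 19 were above 0 once median-of-ratios factors were applied, and 9 under cyclic loess. They followed the shift of the table: differences ran from -1.19 at Ccnd3 to -0.38 at Ezh2, around the median of -0.84 over all sites.

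The metabolic members were Pdhx, Sdhb, Srebf1, Srebf2 and Slc2a3. Near Pdhx, the E3-binding subunit of the PDH complex, signal was 272, 295 and 376 in untreated KO and 593, 518 and 511 in untreated WT, without overlap (-0.79; 0.01 after median-of-ratios scaling, -0.03 with cyclic loess). Near Sdhb, a subunit of succinate dehydrogenase, it was 162, 159 and 215 and 398, 362 and 354, without overlap (-1.06, and -0.25 with cyclic loess, adjusted p = 0.45). In Srebf1, a regulator of lipid synthesis genes, it was 107, 113 and 142 and 331, 230.1 and 259 (-1.17, and -0.32 with cyclic loess, adjusted p = 0.22). The Srebf1 interaction was called (1.19, adjusted p = 0.017), but not with cyclic loess (0.51, 0.35). Srebf2, which regulates cholesterol synthesis genes, had -0.83, and Slc2a3, a glucose transporter, had -0.76. With cyclic loess these were -0.02 and 0.14, neither called. With acetate in KO, Sdhb (0.74), Srebf1 (0.67) and Slc2a3 (0.91) were called higher, while Pdhx (0.49, adjusted p = 0.052) and Srebf2 (0.13, adjusted p = 0.63) were not. With cyclic loess none of the 5 was called higher, and Srebf2 was called lower (-0.49, adjusted p = 0.035).

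Among T cell genes, Lat, an adaptor of the T cell receptor, had a wide site within 50 kb, with 77.3, 71.0 and 80.4 in untreated KO and 159.8, 133 and 164 in untreated WT (-0.98). With acetate it had 209 and 187 in KO and 222 and 237 in WT, so untreated KO alone was below the other 7 libraries. Runx3, a T cell transcription factor (-0.93), Lef1, a factor of naive T cells (-1.02), Il5, a type 2 cytokine (-0.75), and Nfatc1, an activation factor (-0.60), were lower in untreated KO. With cyclic loess Lat was -0.12 (adjusted p = 0.78) and the other 4 were -0.09, -0.14, 0.02 and 0.13, with none of the 5 called, and the Nfatc1 call was also lost without KO untreated 1 (-0.41, adjusted p = 0.065). With acetate in KO, all 5 of these were called higher, from 0.58 at Il5 to 1.36 at Lat, and with cyclic loess Lat alone still was (0.68, adjusted p = 0.0067).

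Of the cell cycle genes, Ccnd3, a D-type cyclin, had 220.5, 226 and 264 in untreated KO and 549, 489 and 584 in untreated WT, without overlap (-1.19, and -0.41 with cyclic loess, adjusted p = 0.08). Cdkn1b, a cyclin-dependent kinase inhibitor, had -0.85, or -0.16 with cyclic loess. Cdk6, the kinase partner of D-type cyclins, had -0.48, or 0.26 with cyclic loess, and its call was lost without KO untreated 1 or 2 or WT untreated 1 (adjusted p = 0.087, 0.083 and 0.12). Kat2b, a histone acetyltransferase, had -0.62 and Irf2, an interferon factor, -0.71, but these were 0.18 and 0.14 with cyclic loess. Kat2b missed the threshold without WT untreated 1 (adjusted p = 0.058). At the widest list member, Ezh2 (555 bp), signal was 254, 214 and 352 in untreated KO and 381, 356 and 311 in untreated WT, and the groups overlapped. Its call appeared without KO untreated 3 (adjusted p = 0.014) or WT untreated 4 (0.038).

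Of the markers of other cell types, 2 wide sites lay near Ebf1, a B cell transcription factor, and none near markers of CD8 T, myeloid, natural killer or gamma-delta T cells. The Ebf1 site at the gene end had 268, 276 and 343 in untreated KO and 563, 446 and 554 in untreated WT (-0.82, and -0.06 with cyclic loess), and the second, outside the gene, had -0.70, or 0.13 with cyclic loess. The table lists no site at the B cell markers Cd79a, Cd79b and Ms4a1, nor at Cd8a, Cd8b1, Csf1r, Lyz2, Cebpa, Ncr1 or Trdc. Other markers of these cell types had sites, and mean signal per 100 bp is given for the highest site of each. It was 327 at Klrb1c, 236 at Itgam, 186 at Spi1, 148 at Eomes, 118 at Cd163l1 and 115 at Ebf1. At Klrk1, Sox13, Blk, Cd14 and Pax5 it was 49.2, 44.4, 42.5, 33.9 and 23.4. T cell and Th17 markers with sites included Cd3e (216), Cd4 (858), Il17a (425), Il23r (268), Ccr6 (170) and Il17f (122), and Trac had none. The part of other cells in any value was not tested.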

How the data were processed

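Signal values were deposited by the authors as 1 table of 39657 sites with 10 library columns. Wide sites are wider than 201 bp, and standard sites measure 201 bp, so 2 of them span 402 bp. How the values were normalised is not given in the sources. DiffBind 3.6.1, deepTools 3.5.1, DESeq, DESeq2 and Genrich are named per the submitters' processing notes, next to Picard 2.10.9, BWA 0.7.16a and FastQC 0.11.5, on build GRCm38 and with no role for each. All values were whole multiples of 1 step per library, within 0.001 steps. The step was taken as 1 read for the depth only, which no source states.

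The fit was limma 3.58.1 (trend, robust) in R 4.3.3 on log2(signal + 1), with 4 group means over 10 libraries. Benjamini-Hochberg adjustment ran over all sites, with calls below 0.05. Fold changes are on the log2(signal + 1) scale. The script was tested on simulated data. Width classes were described without a test. Columns numbered WT 4 and KO acetate 3 matched a group but no single title, and replicate numbers were not taken as pairs.

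Each site was given the nearest protein-coding gene within 50 kb in RefSeq, where nearness does not show regulation. Named sites were the 5 widest, the 5 highest per 100 bp, per comparison up to 5 rises and 5 falls that were called, had at least the table's median signal and had groups without overlap (for the interaction, called only), and wide sites at list genes. The members and lists were chosen with earlier results of these data known. Python 3.11.15, numpy 2.4.6, pandas 2.3.3 and matplotlib 3.10.9 made the other tables and figures. Alternatives were 3 other scalings, other pseudocounts, filters, models and width thresholds, and each library left out. Some items that are counted in the lists are not reported here by name.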

Additional observations from a re-analysis of the deposited data

Results flagged for a closer look

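The change with acetate differed between KO and WT by a direct test of the difference, the interaction, at 18.6% of wide sites towards a larger rise in KO, against 19.5% of all sites, and at 0.506% in the other direction, against 3.61%. The largest called values on the log2 scale were 1.58 at the Bcorl1 site inside the gene, a corepressor gene, 1.57 at E2f4, 1.43 at Arhgef10, 1.43 at Gnb5 and 1.43 at Slc44a2. In the other direction they were -1.85 at Slc47a1, -1.38 at the site with no gene within 50 kb, -1.38 at Scel and -1.26 at Inpp5a. All 5 of the first kind missed the threshold with cyclic loess and without KO acetate 1. Slc47a1 passed it under every alternative run. Scel missed it without WT acetate 2 (-0.89, adjusted p = 0.14) or KO acetate 1 (-1.25, 0.093), and Inpp5a without any of 9 libraries. The site with no gene missed it without KO untreated 2 or 3, WT untreated 1, WT acetate 2 or KO acetate 3. At Bcorl1 signal was 31.8, 35.5 and 34.3 in untreated KO, 102, 63.3 and 133 in untreated WT. Acetate-treated cells had 135 and 58.3 (WT) and 89.5 and 104 (KO). The prefix of the column names and acetate cannot be told apart in KO.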

How the results depend on the processing

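Values are the share of wide sites called, in the order median-of-ratios factors, equal total signal and cyclic loess. Lower in untreated KO was 1.52%, 3.92% and 0.759%. With acetate in KO, higher was 8.60%, 13.1% and 6.95% and lower 8.47%, 5.31% and 8.85%. With acetate in WT, higher was 1.52%, 1.39% and 1.52%. The interaction was 0%, 0.126% and 0.126% higher and 1.14%, 1.01% and 1.52% lower. With signal scaled to 1 common width, lower with acetate in WT was 0.759% and the interaction 12.3% higher. Without trend and robust fitting the interaction was 6.70% higher and 0.253% lower. Lower with acetate in WT was 0.253% with the libraries of that contrast alone and 0.632% in 1 prefix.

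With the replicate number as a block, lower with acetate in KO was 0.506%, acetate in WT 2.53% higher and 3.16% lower, and the interaction 38.8% higher and 0.253% lower. No label says that the numbers pair libraries. Correlations of deviations in same-numbered libraries ran from -0.12 to 0.33.

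Leaving out 1 library gave 1.14 to 1.39% higher and 91.2 to 98.5% lower in untreated KO, and 0% both ways with acetate in both. With acetate in KO it gave 23.9 to 70.3% higher and 0.759 to 1.26% lower. In WT it gave 0.126% (without WT acetate 1) to 1.26% (without WT untreated 4) higher and 0% (without WT acetate 1) to 2.15% (without WT untreated 4) lower. The interaction was 0.126 to 52.8% higher and 0.126% (without WT acetate 2) to 1.01% (without WT untreated 2) lower.

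Of 48 named results, 12 kept direction and side of the threshold throughout, and 9, all KO against WT untreated at list genes, changed sign under another scaling. In the order above these were Nfatc1 0.20, 0.11 and 0.13, Kat2b 0.18, 0.092 and 0.18, Ezh2 0.42, 0.34 and 0.44, Cdk6 0.33, 0.24 and 0.26, and Ebf1 0.10, 0.012 and 0.13. Median-of-ratios factors and cyclic loess gave 0.047 and 0.022 at Il5, 0.036 and 0.14 at Slc2a3, and 0.086 and 0.14 at Irf2. Median-of-ratios factors alone gave 0.011 at Pdhx. The cause of these changes was not tested beyond the scaling itself. The planned count test with edgeR on reads recovered from the values was not run.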
